A study of Triticum aestivum with 6 samples.

Results

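The genes described here encode the enzymes of the pentose phosphate pathway, the ferredoxins and the reductases that pass electrons between NADPH and ferredoxin in roots of bread wheat. They were chosen by the protein name of the best UniProt match in the deposited gene table, and 69 of its 83219 genes carried such a name. The names fell into 18 forms, split by the compartment or tissue word in the name (plastidial or cytosolic, root, leaf or embryo). Such a name records the closest protein match, often from another plant, and is no curated wheat symbol.

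The study compared roots of wild-type wheat JW1 without nitrate (0N, 3 libraries) and with 2 mM nitrate (2N, 3 libraries). In both groups the endosperm was removed, the seedlings were fed nitrate and were then kept in a nitrogen-free medium before a final treatment of 3 hours. The 0N medium of those hours held potassium chloride and the 2N medium a potassium salt that the labels write as KNO, so an effect of nitrate and one of the added chloride cannot be told apart. Nothing in the labels says whether replicates were separate cultures or pools of plants, and p-values therefore measure only the spread between these libraries.

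In a root plastid, light does not reduce ferredoxin. Glucose 6-phosphate is oxidised instead by glucose-6-phosphate dehydrogenase (G6PDH), 6-phosphogluconolactonase (6PGL) and 6-phosphogluconate dehydrogenase (6PGDH), and both dehydrogenases make NADPH. The root form of ferredoxin-NADP reductase (FNR) moves these electrons to ferredoxin, which hands them to nitrite reductase and to other enzymes. Transketolase and transaldolase then rebuild sugar phosphates from the pentoses. The cytosol holds its own dehydrogenases of the same kind, and leaf forms of FNR and ferredoxin work in photosynthesis.

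The libraries held 16208306 to 17645560 counts, with 69457 to 70776 genes detected. Levels are given as CPM, reads scaled to a common library size. Libraries of one group correlated at a Spearman rho of 0.980 to 0.986, and libraries of different groups at 0.951 to 0.960. Since one label field reads leaf tissue while the tissue field reads root, marker genes of both were summed. Root markers (19 genes, by name Casparian strip membrane proteins and the transcription factors SCARECROW and SHORT-ROOT) summed to 160.4 to 184 CPM in 0N and 218 to 271 CPM in 2N. Of the 15 tested root markers 5 rose and none fell, against 7.57% and 7.93% of all tested genes. Green-tissue markers (129 genes, such as chlorophyll-binding proteins and the small chain of Rubisco) summed to 258 to 548 CPM in 0N and 143 to 264 CPM in 2N. Of the green-tissue markers 20 had no count in any library. Such a sum cannot tell fewer cells of a type from less RNA per cell.

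The plastidial NADPH-producing route rose at its 2 dehydrogenases and at transketolase, a later step, together with root FNR and ferredoxin-6. Every tested gene rose in 5 of the 16 forms with a tested gene: plastidial G6PDH 2, plastidial 6PGDH 2, plastidial transketolase, ferredoxin-6 and root FNR. These 15 genes rose by 1.58 to 4.95 on the log2 scale, with standard errors (SE) of 0.10 to 0.15 and an adjusted p of at most 7.7e-08 by edgeR's quasi-likelihood test. The plastidial lactonase between the dehydrogenases, transaldolase and the cytosolic G6PDH had no gene past the threshold of 0.05 on the adjusted p. Of the 69 genes, 53 passed the filter on low counts. Rises were called for 17 of these and falls for 2, while 34 stayed short of the threshold. Of all 54313 tested genes, 7.57% rose and 7.93% fell. Rises of 1 or more on the log2 scale were found for 15 of the 53 genes and for 2.13% of all tested genes. The libraries of the groups did not overlap for 26 of the 53, against 32.4% of all tested genes, and the median log2 fold change was 0.03, against 0.00 over all tested genes.

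**Figure D1:**
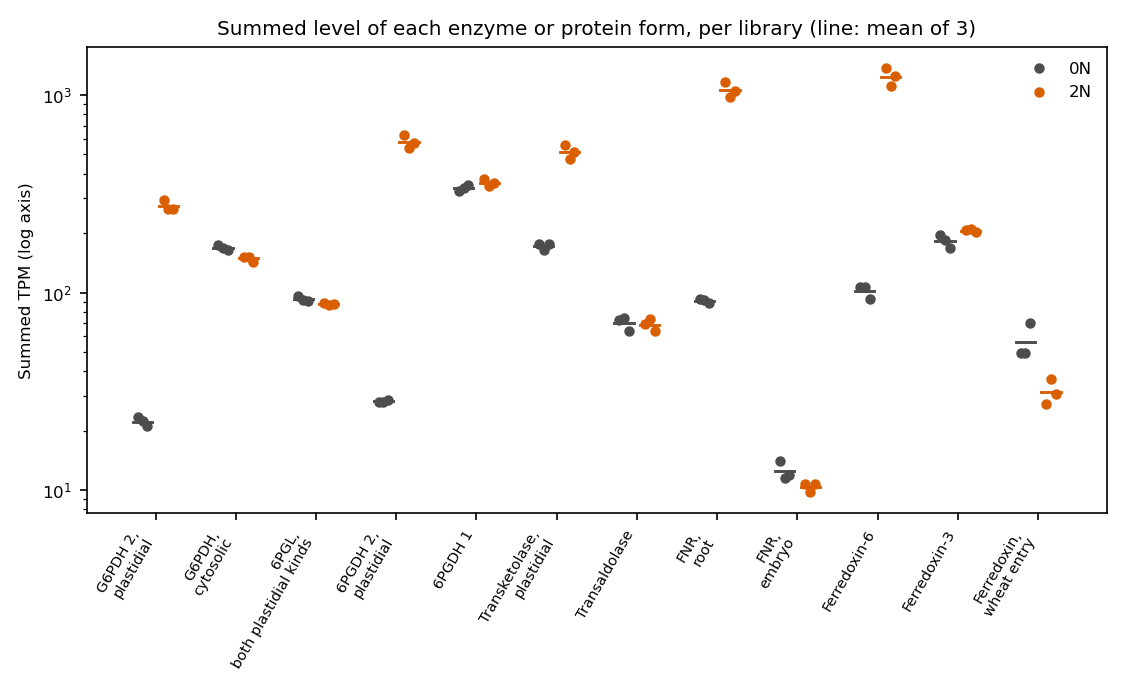
Summed TPM (transcript level per length, log axis) of selected enzyme or protein forms in each library, with the plastidial 6PGL kinds joined, with a line at the mean of 3 libraries (grey 0N, orange 2N). Forms not shown include 6PGL 2, at a mean of 46.9 TPM in 0N and 38.7 TPM in 2N. The forms plastidial G6PDH 2, plastidial 6PGDH 2, transketolase, root FNR and ferredoxin-6 differed most between groups. G6PDH 2 went from 22.3 to 274 TPM and ferredoxin-6 from 102 to 1239.8 TPM. By smaller differences, the groups also did not overlap for ferredoxin-3, higher in 2N. The same held for cytosolic G6PDH, plastidial 6PGL, embryo FNR and wheat-entry ferredoxin, all lower in 2N. They overlapped for 6PGDH 1 and for transaldolase, which stood at 70.5 and 68.9 TPM.

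The first step of the pathway is catalysed by G6PDH, and its copies differed by compartment. The 3 genes similar to the Arabidopsis plastidial form G6PDH 2 lie on chromosomes 2A, 2B and 2D by the code in their identifiers. TraesCS2B02G080000 held 22.4, 21.5 and 20.5 CPM in 0N replicates 1 to 3 and 324, 312 and 308 CPM in 2N. Its copy on 2A, TraesCS2A02G067800, held 9.36, 10.2 and 9.42 CPM in 0N and 181, 135 and 153 CPM in 2N. For TraesCS2D02G066100 the values were 17.5, 18.7 and 15.8 CPM in 0N against 179, 164 and 159 CPM in 2N. Every 2N library thus lay above every 0N library for each copy. The log2 fold changes were 3.87 ± 0.10 (SE) on 2B, 4.01 ± 0.13 on 2A and 3.27 ± 0.11 on 2D (edgeR adjusted p = 1.1e-11, 3.7e-11 and 4.9e-11).

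The cytosolic G6PDH genes were the more abundant kind in 0N and did not follow. Their 5 copies summed to 169 ± 4.23 TPM in 0N and 149 ± 4.48 TPM in 2N (SD, n = 3), where TPM counts transcripts per length and allows levels of different genes to be compared. By TPM the libraries of the groups did not overlap, at 164.7 to 173.1 in 0N and 143.7 to 151.5 in 2N. By CPM the sums were 269.6 to 289.3 in 0N and 257.9 to 270.5 in 2N, and the groups overlapped. The most abundant, TraesCS2A02G320400, held 174, 186 and 169 CPM in 0N and 178, 177 and 168 CPM in 2N, and the groups overlapped. The copy with the largest difference, TraesCS2B02G362700, held 68.3 to 74.6 CPM in 0N and 58.8 to 60.4 CPM in 2N, without overlap. Its log2 fold change of -0.27 ± 0.09 had an adjusted p of 0.056 by edgeR, and 0.0093 with library totals in place of TMM scaling. This copy passed the threshold in 3 of 14 other settings. Over the 5 copies the 95% intervals of the log2 fold change ran from -0.45 to 0.28. The ratio of plastidial G6PDH 2 to cytosolic G6PDH, per length, was 0.135, 0.132 and 0.128 in the 0N libraries and 1.94, 1.75 and 1.85 in the 2N libraries. The plastidial form was thus the lesser of the pair in each 0N library and the greater in each 2N library.

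Other plastidial G6PDH names were close to silent. Among the genes similar to the Arabidopsis form 4, whose name marks it as inactive, 2 of 3 were tested and neither passed the threshold. The more abundant of them by CPM, TraesCS4D02G180300, held 1.72, 1.56 and 1.58 CPM in 0N and 1.38, 0.985 and 0.783 CPM in 2N (log2 fold change -0.62 ± 0.28, edgeR adjusted p = 0.15). TraesCS6A02G146500, TraesCS6B02G174700 and TraesCS6D02G135800, similar to potato or spinach plastidial G6PDH, summed to at most 0.638 CPM in any library and were not tested.

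The second step, catalysed by 6PGL, showed no call in any of its 7 genes. The most abundant plastidial copy, TraesCS5B02G317000 (similar to rice 6PGL 4), held 51.8, 54.2 and 52.5 CPM in 0N and 52.4, 53.2 and 55.2 CPM in 2N. Its log2 fold change was 0.02 ± 0.09, and the 95% intervals of the 4 plastidial copies together ran from -0.39 to 0.28. Of the less abundant rice 6PGL 3 type, TraesCS7D02G270900 held 5.45, 5.47 and 4.86 CPM in 0N and 5.21, 5.62 and 4.52 CPM in 2N. In both plastidial kinds the libraries of the groups overlapped for every copy. The name of 6PGL 2 gives no compartment. Its most abundant copy, TraesCS2A02G175400, held 18.7, 14.7 and 20.0 CPM in 0N and 13.0, 20.0 and 15.2 CPM in 2N, with 0N replicate 2 low and 2N replicate 2 high in its group. The sum of the 3 copies of 6PGL 2, at 43.0, 32.4 and 44.7 CPM in 0N and 26.9, 44.7 and 33.8 CPM in 2N, had the same order of libraries within each group. The green-tissue markers stood in that order too, with 348, 258 and 548 CPM in 0N and 143, 264 and 202 CPM in 2N, and their part in these values was not tested. Of the 3 copies of 6PGL 2, TraesCS2B02G201700 had a log2 fold change of -0.29 with an edgeR adjusted p of 0.46. Without 2N replicate 2 it was -0.56 with an edgeR adjusted p of 0.041. That was the only 1 of 14 other settings in which this copy passed the threshold. Over those settings its log2 fold change ran from -0.56 to -0.12.

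The second NADPH-producing step gave the largest rises of the pathway. All 3 genes similar to rice plastidial 6PGDH 2 rose. On 1A, TraesCS1A02G357200 held 11.3, 11.2 and 11.6 CPM in 0N and 387, 320.3 and 352 CPM in 2N, and had the smallest p of all tested genes (log2 fold change 4.95 ± 0.12, edgeR adjusted p = 8.7e-12). TraesCS1B02G373600 held 20.0, 22.0 and 19.4 CPM in 0N and 388, 331 and 347 CPM in 2N (4.12 ± 0.11, edgeR adjusted p = 1.1e-11). TraesCS1D02G361400 held 11.1, 11.8 and 12.9 CPM in 0N and 295, 256 and 282 CPM in 2N (4.54 ± 0.12, edgeR adjusted p = 8.7e-12). In each copy all 2N libraries stood above all 0N libraries. Summed per length, the 3 copies stood at 28.2 ± 0.448 TPM in 0N and 581 ± 43.7 TPM in 2N (SD, n = 3).

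The 7 genes similar to rice 6PGDH 1, whose name gives no compartment, stood at 339 ± 11.0 TPM in 0N and 360.2 ± 14.1 TPM in 2N. Of 6 tested, 1 rose and none fell. That gene, TraesCS7A02G092300, held 128, 137 and 142 CPM in 0N and 187, 172 and 174 CPM in 2N (log2 fold change 0.39 ± 0.09, edgeR adjusted p = 0.0094). It was also the most abundant of its form by CPM. The other tested copies had log2 fold changes of 0.00 to 0.34 that did not pass the threshold, and TraesCS3D02G491400 (0.19 ± 0.09, edgeR adjusted p = 0.19) and TraesCS4A02G455900 (0.15 ± 0.09, edgeR adjusted p = 0.31) had groups that did not overlap. TraesCS7A02G033600 was not tested, with 1 count in a single library. The ratio of 6PGDH 2 to 6PGDH 1 per length was 0.0850, 0.0824 and 0.0819 in 0N and 1.67, 1.55 and 1.61 in 2N. Here too the plastidial form was the lesser in each 0N library and the greater in each 2N library.

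Transketolase, which moves carbon pairs between sugar phosphates, rose less steeply from a higher start. TraesCS7D02G066500 held 191, 188 and 203 CPM in 0N and 627, 535 and 579 CPM in 2N (log2 fold change 1.58 ± 0.10, edgeR adjusted p = 7.7e-08). TraesCS7A02G071100 held 94.2, 98.7 and 93.9 CPM in 0N and 385, 329 and 371 CPM in 2N (1.92 ± 0.10, edgeR adjusted p = 8.6e-09). The third gene, TraesCSU02G063400, carries the code for unplaced sequence and held 125, 119 and 120.5 CPM in 0N and 422, 347 and 379 CPM in 2N (1.66 ± 0.10, edgeR adjusted p = 5.8e-08). Their summed level per length went from 172 ± 6.94 to 516 ± 40.6 TPM (SD, n = 3). The other 3 transketolase genes, on 2A, 2B and 2D, were not tested. TraesCS2B02G090100 had 0 counts in all libraries, which allows up to 0.174 to 0.181 CPM per library at 3 counts, and the other two had at most 2 counts in a library.

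Transaldolase, the partner of transketolase, did not pass the threshold in any of its 3 genes, which were matched to the yeast protein NQM1. The most abundant, TraesCS7D02G297600, held 42.5, 46.7 and 35.8 CPM in 0N and 41.5, 46.1 and 40.8 CPM in 2N (log2 fold change 0.04 ± 0.11), and all 3 copies overlapped between groups. The 95% intervals ran from -0.19 to 0.35. The ratio of transketolase to transaldolase per length was 2.45 ± 0.267 in 0N and 7.52 ± 0.888 in 2N (SD, n = 3).

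**Figure D2:**
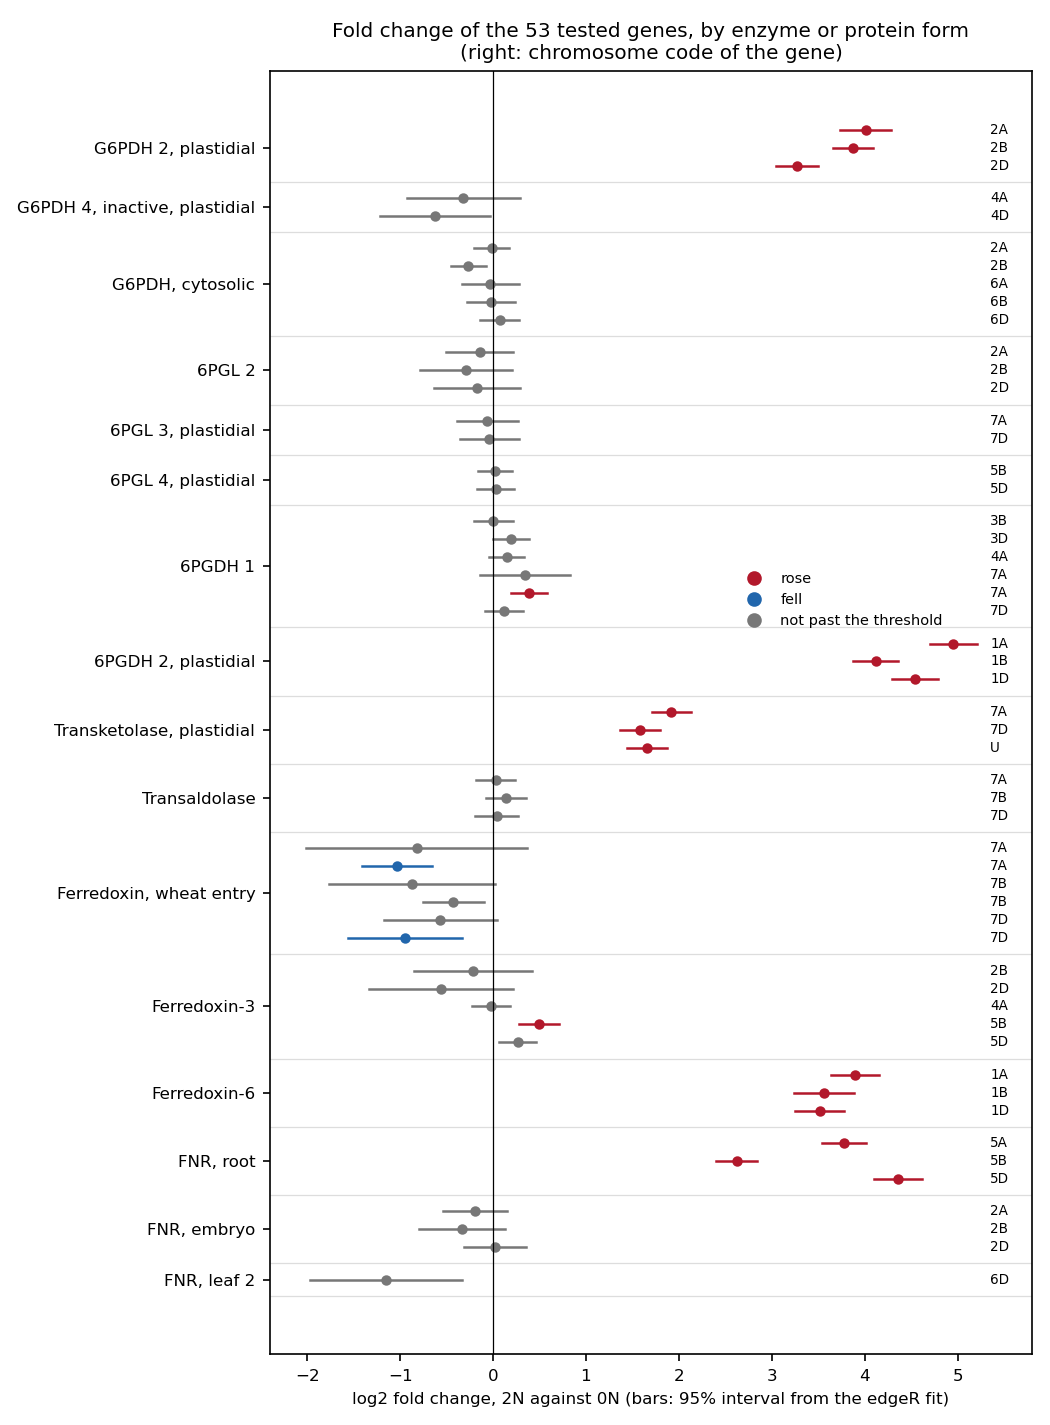
Log2 fold change (2N against 0N) of each of the 53 tested genes with its 95% interval from the edgeR fit, ordered by form, with the chromosome code of each gene at the right. The 15 genes of G6PDH 2, 6PGDH 2, transketolase, ferredoxin-6 and root FNR lie between 1.58 and 4.95, the other 2 rises at 0.39 and 0.50, and both falls are wheat-entry ferredoxins.

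Ferredoxin-NADP reductase divided by its tissue name. All 3 copies of the root form rose. TraesCS5D02G431300 held 35.5, 40.3 and 37.4 CPM in 0N and 852, 693 and 781 CPM in 2N (log2 fold change 4.36 ± 0.12, edgeR adjusted p = 1.1e-11). TraesCS5A02G423000 held 38.4, 40.0 and 39.0 CPM in 0N and 596, 491 and 521 CPM in 2N (3.78 ± 0.11, edgeR adjusted p = 2e-11). TraesCS5B02G424900 held 47.5, 47.7 and 42.4 CPM in 0N and 303, 262 and 285 CPM in 2N (2.62 ± 0.10, edgeR adjusted p = 3.9e-10). The copy on 5B was therefore the highest in each 0N library by CPM and the lowest in each 2N library. By mean TPM, TraesCS5D02G431300 ranked 6635 among all genes of the table in 0N and 209 in 2N.

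The embryo and leaf forms of FNR had no call among their 4 tested genes. Of the embryo form, TraesCS2D02G253400 was the most abundant copy by CPM, with 5.74, 4.32 and 5.38 CPM in 0N and 5.57, 5.04 and 5.06 CPM in 2N (log2 fold change 0.02 ± 0.15, edgeR adjusted p = 0.96). Its groups overlapped. The embryo copies together stood at 12.5 ± 1.34 TPM in 0N and 10.4 ± 0.564 TPM in 2N (SD, n = 3). Of the 6 leaf-form genes only TraesCS6D02G012200 was tested. It held 1.54, 0.961 and 1.87 CPM in 0N and 0.299, 0.927 and 0.723 CPM in 2N. The groups of this gene lay next to each other without overlap, and its log2 fold change of -1.15 ± 0.38 had an edgeR adjusted p of 0.056. It passed the threshold in only 4 of the 13 other settings that tested it. By edgeR these gave an adjusted p of 0.026 without a filter, 0.038 with library totals, 0.032 without 0N replicate 2 and 0.029 without 2N replicate 2. Over the 13 settings its log2 fold change ran from -1.50 to -0.52. TraesCS6B02G015000, also of leaf isozyme 2, was below the filter, with 1.13, 0.541 and 1.35 CPM in 0N and 0.120, 0.348 and 0.301 CPM in 2N, without overlap. It passed the threshold as lower in 2N in 4 of the 5 settings that tested it. By edgeR its log2 fold change was -1.93 with no filter (adjusted p = 0.0027). When 0N replicate 2 was left out it was -2.25 (edgeR adjusted p = 0.0054). Leaving out a 2N library gave -1.61 for replicate 1, -2.22 for replicate 2 and -2.06 for replicate 3 (edgeR adjusted p = 0.058, 0.016 and 0.039). Summed over the leaf forms, the level was 4.32, 2.16 and 6.14 CPM in 0N and 1.32, 2.61 and 1.87 CPM in 2N, so that the groups overlapped. Within each group the libraries stood in the same order as in the sum of the green-tissue markers, with 348, 258 and 548 CPM in 0N and 143, 264 and 202 CPM in 2N. The part of green-tissue RNA in these values was not tested. Of leaf isozyme 1, which had no tested gene, TraesCS7D02G016800 was the most abundant, with 0.406 to 1.46 CPM over all libraries, and TraesCS4A02G472500 and TraesCS7A02G020500 had at most 5 counts in a library.

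Ferredoxins carry the electrons from FNR to the enzymes that use them, and their forms moved in both directions. In maize, ferredoxin-3 and ferredoxin-6 are known as non-photosynthetic forms, and ferredoxin-6 as one that nitrate induces in roots. All 3 tested genes similar to maize ferredoxin-6 rose. TraesCS1D02G275800 held 24.0, 27.6 and 24.8 CPM in 0N and 321, 247 and 308 CPM in 2N (log2 fold change 3.52 ± 0.12, edgeR adjusted p = 1e-10). TraesCS1A02G276300 held 13.0, 14.1 and 12.5 CPM in 0N and 221, 173 and 195 CPM in 2N (3.89 ± 0.12, edgeR adjusted p = 2.7e-11). TraesCS1B02G285500 held 15.2, 14.5 and 9.77 CPM in 0N and 166, 143 and 158 CPM in 2N (3.56 ± 0.15, edgeR adjusted p = 6.8e-09). All 2N libraries stood far above all 0N libraries in each copy, and 0N replicate 3 was low for the copy on 1B. The other 3 genes of this form, on 3A, 3B and 3D, were not tested. TraesCS3A02G373900 and TraesCS3B02G406100 had 0 counts in every library, and TraesCS3D02G366600 held at most 0.234 CPM.

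Ferredoxin-3 was the most abundant ferredoxin form per length in 0N and was overtaken by ferredoxin-6 in 2N. Its 5 genes summed to 182 ± 14.6 TPM in 0N and 206 ± 3.87 TPM in 2N, and the ratio of ferredoxin-6 to ferredoxin-3 per length was 0.542, 0.583 and 0.556 in 0N and 6.58, 5.31 and 6.17 in 2N. Of the 5 genes, 1 rose. TraesCS5B02G516000 held 37.0, 34.8 and 29.7 CPM in 0N and 47.2, 47.7 and 48.1 CPM in 2N (log2 fold change 0.50 ± 0.10, edgeR adjusted p = 0.0031). The most abundant copy by CPM, TraesCS5D02G516100, held 68.1, 65.7 and 57.0 CPM in 0N and 76.7, 77.2 and 75.4 CPM in 2N. Its groups did not overlap, but its log2 fold change of 0.27 ± 0.10 had an edgeR adjusted p of 0.077. The copy on 4A, TraesCS4A02G356200, stood at 38.5 to 44.7 CPM in 0N and 39.0 to 42.5 CPM in 2N. These 3 copies had whole-number counts in every library, so their counts gave no sign of reads split among genes.

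The 6 genes matched to the ferredoxin entry of wheat itself, named for the chloroplast, lie in pairs on 7A, 7B and 7D, and 2 of them fell. TraesCS7A02G325500 held 6.75, 7.99 and 6.90 CPM in 0N and 4.49, 2.90 and 3.19 CPM in 2N (log2 fold change -1.03 ± 0.18, edgeR adjusted p = 0.00089). TraesCS7D02G322100 held 2.25, 2.04 and 3.04 CPM in 0N and 0.778, 1.28 and 1.75 CPM in 2N (-0.95 ± 0.29, edgeR adjusted p = 0.036). The groups did not overlap in either gene. The second call was lost without 0N replicate 1, 0N replicate 3, 2N replicate 1 or 2N replicate 2 (edgeR adjusted p of 0.069, 0.14, 0.14 and 0.067) and with DESeq2 (adjusted p = 0.079). The most abundant copy by CPM, TraesCS7D02G322000, held 6.87, 7.03 and 10.7 CPM in 0N and 3.65, 7.36 and 5.54 CPM in 2N (log2 fold change -0.57 ± 0.26, edgeR adjusted p = 0.21).

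Within this form the copies of a pair did not follow the same order of libraries. TraesCS7A02G325400, TraesCS7B02G226100 and TraesCS7D02G322000 were each highest in 0N replicate 3 (8.54, 10.1 and 10.7 CPM), and in 2N each was highest in replicate 2 (4.17, 5.33 and 7.36 CPM). The green-tissue markers were also highest in these replicates of their groups, at 548 and 264 CPM. Of their neighbours, TraesCS7A02G325500 and TraesCS7B02G226200 were highest in replicate 2 of 0N and in replicate 1 of 2N, where the green-tissue markers were lowest in their groups. TraesCS7D02G322100, the remaining neighbour and one of the genes that fell, was highest in replicate 3 and lowest in replicate 2 of 0N, as the markers were. In 2N it was lowest in replicate 1, as the markers were, and highest in replicate 3. Over the 129 green-tissue markers, 75 were tested. Of these 26 fell and none rose, against 7.93% and 7.57% of all tested genes. By edgeR the median log2 fold change of the tested markers was -0.99, near that of the 6 ferredoxin genes at -0.85. Whether green-tissue RNA had a part in the falls was not tested.

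**Figure D3:**
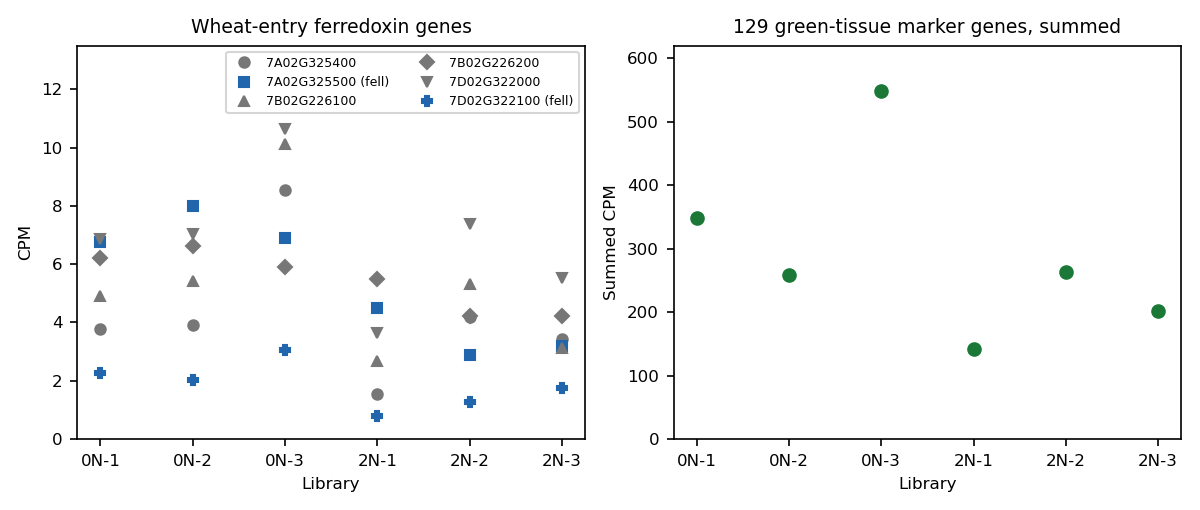
Left, CPM of the 6 genes matched to the wheat ferredoxin entry in each library, with the 2 genes that fell in blue. Right, summed CPM of the 129 green-tissue marker genes in the same libraries, highest at 548 CPM in 0N replicate 3 and lowest at 143 CPM in 2N replicate 1.

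The copies of a form did not contribute equally, and the division of a form among its copies differed between the groups. For root FNR, the copy on 5B held 39.1%, 37.3% and 35.7% of the summed CPM in 0N and 17.3%, 18.1% and 17.9% in 2N. The copy on 5D held 29.2%, 31.5% and 31.5% in 0N and 48.7%, 47.9% and 49.2% in 2N. The 5A copy held 31.9% ± 0.827 in 0N and 33.6% ± 0.664 in 2N (SD, n = 3). The 5B copy thus gave way to the 5D copy in share although both rose in level. For 6PGDH 2, the 1B copy held 46.7% ± 2.40 in 0N and 36.1% ± 0.557 in 2N, and the 1A copy 26.0% ± 0.918 and 35.8% ± 0.426. For G6PDH 2, the 2D copy held 35.7% ± 1.26 in 0N and 26.2% ± 0.598 in 2N. The shares of transketolase moved less, with 47.2% ± 1.25 and 43.8% ± 0.332 for the 7D copy, and in ferredoxin-6 the 1A copy went from 25.5% ± 0.866 to 30.5% ± 0.853. Shares of the groups did not overlap for the copies named so far. They overlapped for the 1D copy of 6PGDH 2 (27.3% ± 1.92 in 0N and 28.2% ± 0.558 in 2N), the 1B and 1D copies of ferredoxin-6 (25.2% ± 4.25 and 24.2% ± 0.983, 49.1% ± 3.24 and 45.2% ± 1.37) and the transketolase gene on unplaced sequence (29.6% ± 0.793 and 28.9% ± 0.478). No test was made of shares. Of the 17 genes that rose, 16 had counts that were not whole in some library, as a division of reads among similar genes gives, so the split between copies is less certain than the sum of a form.

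**Figure D4:**
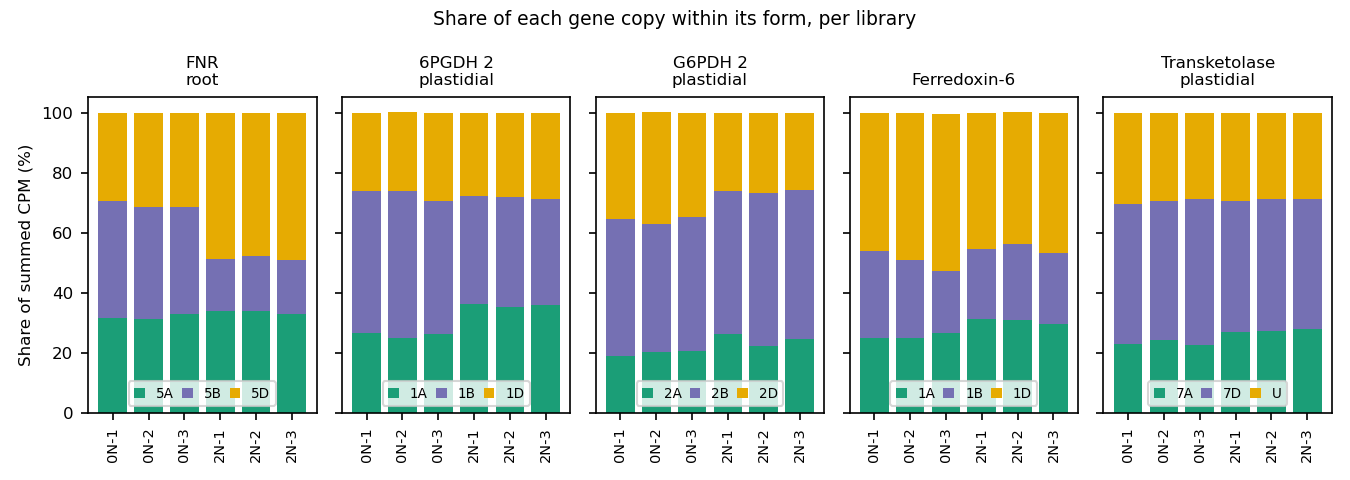
Share (percent of summed CPM) of each gene copy within its form in each library, for the 5 forms in which every tested gene rose; copies are named by chromosome code. In root FNR the 5B share is near 37.4% in 0N and 17.8% in 2N, and the 5D share near 30.7% and 48.6%.

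Root FNR and ferredoxin-6, partners in the transfer of electrons, stood close to each other per length in every library. The ratio of root FNR to ferredoxin-6 was 0.870, 0.854 and 0.951 in 0N and 0.849, 0.876 and 0.842 in 2N, while the levels themselves went from 90.8 ± 2.18 to 1059.7 ± 95.1 TPM for root FNR and from 102 ± 7.95 to 1239.8 ± 128 TPM for ferredoxin-6 (SD, n = 3). Across all forms the 69 genes summed to 1389.8 ± 20.8 TPM in 0N and 4625 ± 319.6 TPM in 2N.

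Neighbouring steps were read from 4 lists of other genes. Enzymes that take electrons from ferredoxin rose in 11 of 13 tested genes and none fell, against 7.57% and 7.93% of all tested genes. Their most abundant gene in 2N was TraesCS6B02G364600, similar to nitrite reductase, which makes ammonium in the plastid. It held 5.39, 9.31 and 3.80 CPM in 0N and 689, 622 and 719.9 CPM in 2N (log2 fold change 6.78 ± 0.30, edgeR adjusted p = 1.1e-05). TraesCS6A02G333900, of the same kind, had a log2 fold change of 6.86 ± 0.22. TraesCS2B02G152900, similar to ferredoxin-dependent glutamate synthase, had one of 2.04 ± 0.10 (edgeR adjusted p = 1.3e-08 and 4.4e-09). Rises covered all 3 genes each of nitrite reductase, ferredoxin-dependent glutamate synthase and sulphite reductase. The 2 genes that did not pass were similar to the catalytic chain of ferredoxin-thioredoxin reductase, whose variable chain rose in both its genes.

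Supply of glucose 6-phosphate, the substrate of G6PDH, had 8 rises and 1 fall among 33 tested genes, against 7.57% and 7.93% of all tested genes. In 10 of 14 other settings 6 of these rises remained. The rises not kept there were TraesCS3A02G276100, similar to hexokinase-6, and TraesCS1A02G040600, similar to a cytosolic glucose-6-phosphate isomerase (edgeR adjusted p = 0.041 and 0.046). The plastidial glucose-6-phosphate isomerase gene TraesCS5D02G253700 held 65.6, 63.9 and 60.3 CPM in 0N and 293, 262 and 278 CPM in 2N (log2 fold change 2.13 ± 0.10, edgeR adjusted p = 1.7e-09). TraesCS2D02G226000 and TraesCS2B02G245900, similar to the translocator that carries glucose 6-phosphate into plastids, had log2 fold changes of 3.78 ± 0.11 and 3.70 ± 0.12 (edgeR adjusted p = 2.3e-11 and 5.9e-11). Of the 6 translocator genes 3 rose, all on group 2 chromosomes. TraesCS7A02G287500, TraesCS7B02G178500 and TraesCS7D02G288100 did not pass the threshold (log2 fold changes 0.00, -0.11 and 0.03). Per length, the 7A, 7B and 7D copies averaged 22.4, 24.5 and 66.5 TPM in 0N, and the 2A, 2B and 2D copies 10.1, 11.3 and 15.3 TPM. Of 20 tested hexokinase genes, 1 rose. The fall was in TraesCS5D02G253800, also similar to the plastidial isomerase, from 5.13 to 3.57 CPM on average (log2 fold change -0.53 ± 0.16, edgeR adjusted p = 0.037, and not past the threshold in 10 of 14 other settings).

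Among the remaining pentose phosphate steps, ribose-5-phosphate isomerase and ribulose-phosphate 3-epimerase, none of 13 tested genes passed the threshold by edgeR. At an unadjusted p under 0.05, 2 of them were lower in 2N and none higher, against 14.0% of all tested genes lower at that p. DESeq2 gave no call, while library totals and limma on TPM with either pseudocount each called 1 fall, TraesCS4B02G285000. The most abundant, TraesCS5A02G285400, held 39.4, 34.7 and 34.5 CPM in 0N and 33.7, 29.7 and 36.3 CPM in 2N. The smallest p belonged to TraesCS4B02G285000, a plastidial epimerase gene with 11.9 to 12.7 CPM in 0N and 9.94 to 10.1 CPM in 2N (log2 fold change -0.28 ± 0.11, edgeR adjusted p = 0.089), followed by TraesCS4A02G019100 (-0.32 ± 0.14, edgeR adjusted p = 0.14). Other sources of NADPH had 3 rises and 2 falls among 20 tested genes, against 7.57% and 7.93% of all tested genes. All 3 rises were genes similar to the cytosolic NADP-isocitrate dehydrogenase. TraesCS3D02G237500 among them held 286, 285 and 267 CPM in 0N and 606, 553 and 587 CPM in 2N (log2 fold change 1.06 ± 0.09, edgeR adjusted p = 2.7e-06), and TraesCS3B02G265700 had a log2 fold change of 1.17 ± 0.09. The falls were TraesCS2A02G190700, similar to NADP-dependent glyceraldehyde-3-phosphate dehydrogenase (-1.34 ± 0.17), and TraesCS3D02G110700, similar to plastidial NADP-malic enzyme (-0.51 ± 0.10).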

How the data were processed

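Polyadenylated RNA of 6 root libraries was sequenced. The deposited table gives expected counts and TPM per gene and library; the authors' estimated counts were not whole for 45.1% of values (tolerance 1e-06) and were rounded. HISAT and Bowtie2 are named per the submitters' processing notes; their roles, the genome build, the annotation and the strand setting: not given in the sources used here. 20 other columns of per-sample values were not used. Counts were tested with edgeR 4.0.16 (R 4.3.3; TMM scaling, filterByExpr with a minimum count of 10, robust quasi-likelihood F test, 2N against 0N) with Benjamini-Hochberg adjustment over 54313 genes. CPM use TMM-scaled library sizes. SEs were taken as |log2 fold change|/√F. Deposited TPM served to compare levels between genes. Other settings used DESeq2 1.42.0 and limma 3.58.1.

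All called genes of a form were named, or its most abundant tested gene where none was called; further genes named were chosen after their values were seen. In the other lists the most abundant gene and the 2 with the smallest p were named. The members and lists were chosen with earlier results of these data known. Class sums, ratios and shares were not tested. Floors (3 counts) cover counting error only.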

Additional observations from a re-analysis of the deposited data

How the results depend on the processing

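The 17 rises were made by the same 17 genes in all 14 other settings. Over 53 genes and these settings no direction reversed with a call. The number that fell, 2, was 5 with library totals, 4 without a filter, 4 and 4 with limma on log2(TPM + 0.1) and log2(TPM + 1), and 1 to 5 without a replicate. Both falls were kept with library totals, without a filter and with limma on TPM. DESeq2 called 2 falls, of which 1 was among them. Leaving out a library kept 1 or 2 of them, with 1 among the 5 falls without 2N replicate 2. Falls in glucose 6-phosphate supply (1) numbered 2 with library totals, 2 without a filter, 0 with DESeq2, 0 and 0 with limma on TPM, and 0 to 1 without a replicate. Falls in other NADPH sources (2) numbered 5 with library totals, 4 without a filter, 5 and 5 with limma on TPM, and 2 to 4 without a replicate. Falls in the remaining pentose phosphate steps (0) numbered 1 with library totals and 1 and 1 with limma on TPM. Summed levels on TPM in place of CPM gave 2N to 0N ratios of 1.06 against 1.15 for 6PGDH 1, 0.946 against 1.02 for 6PGL 4 and 0.881 against 0.952 for cytosolic G6PDH. The cause was not tested. Library totals and TPM moved the median log2 fold change of all genes by -0.09 and by -0.10 and -0.07, and of the calls over all genes 48.8% were rises with TMM, 32.2% with library totals and 31.0% with limma on TPM for both pseudocounts. All genes past the threshold numbered 8415, and 5704 to 8156 without a replicate.

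Replicate numbers are shared by the groups. Deviations of same-numbered libraries correlated at -0.005, -0.106 and 0.026, so no pairing by number was visible. These values cannot tell a weak pairing from none. With a replicate block 7298 genes passed the threshold, the 17 rises remained and 2 genes of the 53 fell, with 0 falls in glucose 6-phosphate supply and 4 in other NADPH sources. Low counts limit the leaf forms, and reads divided among similar copies limit single copies more than sums.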
